A study of Mus musculus with 2 samples.

Results

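The genes described here encode the proteins that license replication origins and build the DNA replication fork. They were listed by name as 40 genes in 8 roles: origin recognition, helicase loading, the MCM helicase, origin firing, the sliding clamp and its loader, single-strand binding, polymerases with primase, and lagging-strand and topology enzymes. A probe was found for 38 of the 40 genes, 31 of them by accession and 7 by the words of the probe's description, and 37 could be tested among 18031 gene names tested on the arrays. The 7 named by description were Cdt1, Mcm10, Rfc3, Rfc4, Rfc5, Prim1 and Pole2. No probe was assigned to Mcm3 or Fen1, and Rfc1 had a spot marked as an outlier on array 2.

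RNA came from mouse mucosal mast cell cultures, the protease-rich mast cells of epithelia grown in vitro, at day 20 and at day 4. Cells of both days were grown with IL-3, IL-9, SCF and TGF-beta1, and the labels used here name neither the starting cells nor a strain, age or sex. Each labelled sample pooled 3 samples. Array 1 carried day 20 RNA in Cy5 and day 4 RNA in Cy3, and array 2 carried other pools in the opposite dyes, which gives 2 biological replicates whose number limits the precision. All ratios below are log2 of day 20 over day 4, given for each array and as mean ± SD with n = 2 arrays. The test is limma's moderated test with p adjusted over all genes tested, and a change was called below 0.05.

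Licensing loads MCM helicases onto origins in G1: the origin recognition complex marks the site, Cdc6 and Cdt1 bring the MCM2-7 ring, and geminin blocks Cdt1 once replication has begun. Cyclin E with Cdk2 and the Cdc7 kinase then fire the loaded helicases. Primase and polymerases, the PCNA clamp, its RFC loader and the RPA protein carry out synthesis. Many genes of this machinery are textbook targets of E2F factors, and cells that leave the cycle lower them.

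The promoters are shown first, because E2F elements are the best-known sequence that such genes share. A RefSeq promoter (build GRCm38.p6) was held for 34 of the 40 genes, and the 250 bases before each annotated start were searched on both strands for 4 E2F octamers, TTTCCCGC, TTTCGCGC, TTTGCCGC and TTTGGCGC, with overlapping matches counted. At least 1 octamer was present in 8 of the 34 genes (23.5%), against 583 of 27025 genes in the whole table (2.16%). The 8 stretches with 24 flanking bases, or fewer where the annotated start comes sooner, are printed 5′ to 3′ on the gene's strand, with the matched bases in capitals. The Orc1 stretch at chr4:108579403-108579453, plus strand, ends at the annotated start, 19 bases after its match. The Orc3 stretch lies at chr4:34614952-34615007 on the minus strand. The Cdc6 stretch lies at chr11:98907989-98908044 on the plus strand. The Mcm5 stretch at chr8:75109332-75109391, plus strand, holds 2 overlapping matches. The Mcm6 stretch at chr1:128359721-128359839, minus strand, holds 3 matches, of which 2 overlap. The Mcm7 stretch lies at chr5:138172017-138172072 on the minus strand. The Pola1 stretch lies at chrX:93632262-93632317 on the minus strand. The Rfc3 stretch at chr5:151651209-151651242, minus strand, also ends at the annotated start.
Orc1: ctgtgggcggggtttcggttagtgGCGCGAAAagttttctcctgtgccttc
Orc3: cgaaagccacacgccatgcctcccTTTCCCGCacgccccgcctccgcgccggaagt
Cdc6: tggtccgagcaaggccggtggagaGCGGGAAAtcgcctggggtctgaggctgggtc
Mcm5: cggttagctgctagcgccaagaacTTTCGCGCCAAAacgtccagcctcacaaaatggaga
Mcm6: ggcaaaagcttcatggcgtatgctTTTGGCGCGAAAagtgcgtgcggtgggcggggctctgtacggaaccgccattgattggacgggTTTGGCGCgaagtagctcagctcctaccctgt
Mcm7: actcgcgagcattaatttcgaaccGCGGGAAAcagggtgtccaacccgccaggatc
Pola1: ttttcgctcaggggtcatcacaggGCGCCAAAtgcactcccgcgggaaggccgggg
Rfc3: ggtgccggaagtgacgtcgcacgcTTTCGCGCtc
The match nearest to a start was that of Rfc3, 2 bases from it, and the single match of Mcm7 lay 157 bases away. Of these 8 genes, Orc1, Orc3, Cdc6, Mcm5, Mcm6, Mcm7 and Pola1 were lower at day 20 by the test given below, and Rfc3 did not pass it. An octamer was present in 7 of the 18 lower genes with a promoter entry and in 1 of the 13 that did not pass. The cell cycle element TTTGAA was present in 6 of the 34 genes (17.6%), against 18.3% of all genes, with 1 of the 18 lower genes and 4 of the 13 that did not pass. The sequence CCAAT was present in 21 of 34 (61.8%), against 37.5%, with 11 of the 18 and 8 of the 13. A match is a description of these letters and not a site or a cause.

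Most of the tested replication genes were lower at day 20 than at day 4. Of the 37 tested, 21 fell, 1 rose and 15 did not pass, where 9.29% of all genes tested fell and 7.83% rose. The genes and the lists set beside them below were chosen with earlier results of these data known. These shares are therefore a description and not a test. The median log2 ratio of the 37 was -0.45, with -0.58 on array 1 and -0.31 on array 2, and the median of all genes tested was -0.01. For the 7 genes named by description the median was -0.74, and 5 of them fell. For the 30 tested genes named by accession it was -0.40, and 16 fell. The ratio was below 0 on both arrays for 32 of the 37, against 30.4% of all genes tested. Both day 20 levels lay below both day 4 levels for 29 of the 37, against 15.3% of all genes, and both lay above for 2 of the 37 (Rfc2 and, barely, Pola2), against 13.9%. The falls were moderate in size, and the lowest mean ratios, near -1, correspond to a fold of about 2. The count called lower depended on the processing. It was 7 with the scanner software's own ratios, and 14 with a background offset of 0 or with median centring. All 37 probes were well above background in all 4 channels, so none passed the filter through 1 day alone. In such pooled RNA, fewer cycling cells and less RNA per cell cannot be told apart.

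**Figure D1:**
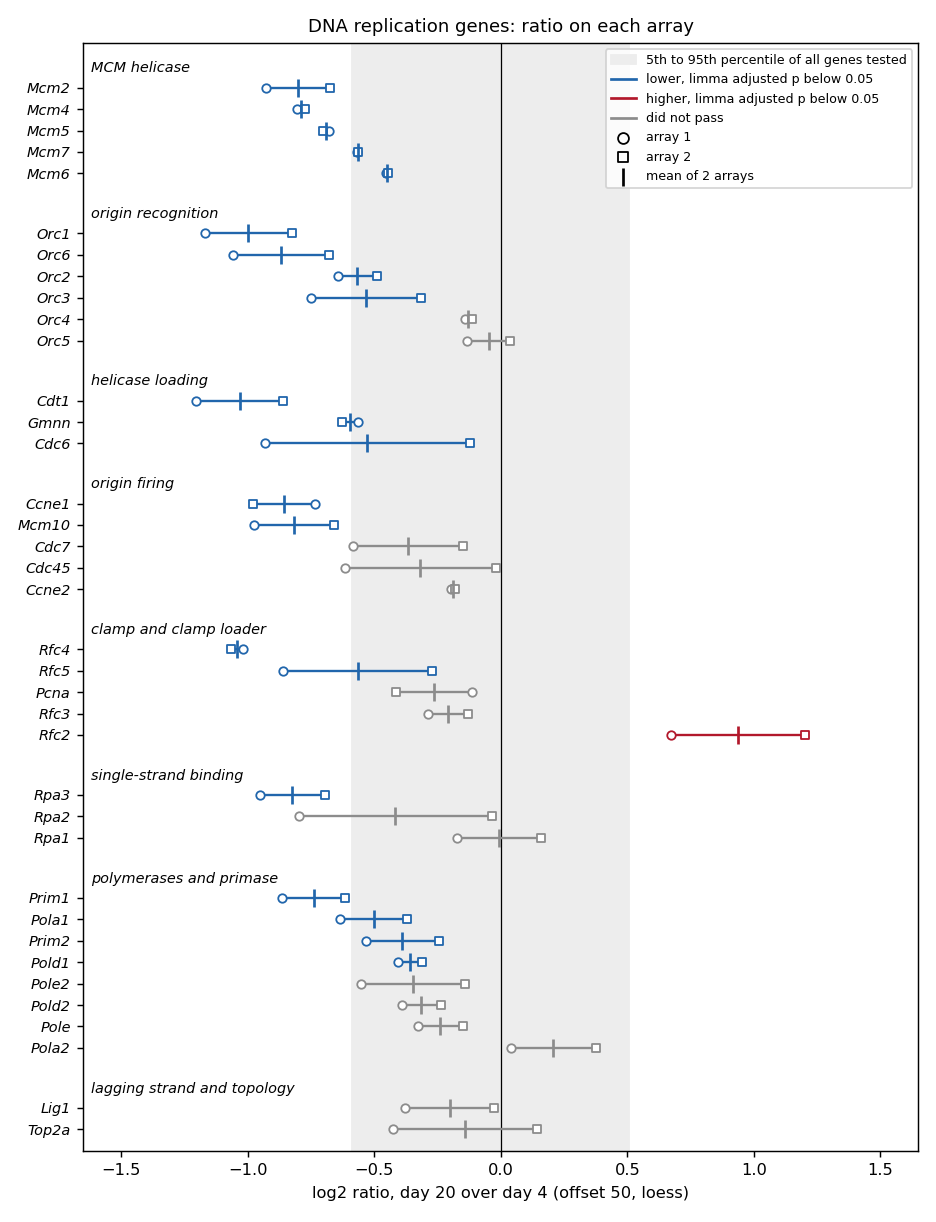
Log2 ratio of day 20 over day 4 for the 37 tested replication genes by role, with a circle for array 1, a square for array 2 and a bar for their mean. The 21 called lower are blue, Rfc2 alone is red, and 15 grey genes did not pass. The grey band holds the 5th to 95th percentile of all genes tested, -0.59 to 0.50.

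Of the 6 tested subunits of the origin recognition complex, 4 fell, and the median ratio of the 6 was -0.55. Orc1, a subunit whose protein is turned over with the cell cycle in human cells, had normalised intensities of 125 and 130 in the day 20 channels of arrays 1 and 2, against 282 and 230 in the day 4 channels. Both day 20 values were below both day 4 values, and the ratios of -1.17 and -0.83 gave a mean of -0.998 ± 0.242 (limma adjusted p = 5.13e-05). Orc6, the smallest subunit, had 466 and 768 at day 20 against 970 and 1231 at day 4. Its levels did not overlap between days, and the mean ratio was -0.87 ± 0.27 (limma adjusted p = 0.00019). Orc2 and Orc3, core subunits of the complex, fell less, with mean ratios of -0.57 ± 0.11 and -0.53 ± 0.31. The other two subunits did not pass: the mean ratio of Orc4 was -0.13 ± 0.02 and that of Orc5 was -0.05 ± 0.12 (limma adjusted p = 0.974). Orc5 had 107 and 110 at day 20 and 118 and 107 at day 4, so its days overlapped.

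All 3 tested genes of helicase loading fell. Cdt1, which brings the MCM ring to the origin, had 964 and 1139 at day 20 against 2220 and 2068 at day 4. The days were well apart, with ratios of -1.20 and -0.86 and a mean of -1.03 ± 0.24 (limma adjusted p = 3.96e-05). Gmnn, the gene of the Cdt1 inhibitor geminin, had 2598 and 2245 at day 20 against 3838 and 3473 at day 4. It also kept the days apart, and its mean ratio was -0.60 ± 0.05 (limma adjusted p = 0.00171). Thus a loader and its inhibitor were both lower, Cdt1 by a ratio further from 0 on each array. Cdc6, the ATPase that works with Cdt1, was less settled: 85 and 79 at day 20 against 163 and 86 at day 4. Its call rested on array 1, with ratios of -0.93 on array 1 and -0.12 on array 2 and a mean of -0.53 ± 0.57 (limma adjusted p = 0.034).

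The MCM helicase, the ring that unwinds DNA, fell in all 5 tested subunits, with a median of -0.69. Mcm2 had 649 and 580 at day 20 against 1236 and 927 at day 4, and its mean ratio was -0.80 ± 0.18 (limma adjusted p = 0.000232). Mcm4 had 1327 and 1693 at day 20 against 2321 and 2895 at day 4, a mean ratio of -0.79 ± 0.02 (limma adjusted p = 0.000183). Mcm5 had 986 and 869 at day 20 against 1582 and 1414 at day 4, a mean ratio of -0.69 ± 0.01 (limma adjusted p = 0.000526). In each of these 3 the days did not overlap. Mcm6 had 4752 and 5193 at day 20 against 6508 and 7068 at day 4, and its ratios of -0.45 and -0.44 were the closest to 0 of the ring (mean -0.45 ± 0.01, limma adjusted p = 0.0114). Mcm7 fell with ratios of -0.57 and -0.56, although its levels of 1475 and 2404 at day 20 and 2188 and 3553 at day 4 overlapped across arrays. The 5 subunits lay between -0.80 and -0.45, and the SD over arrays was at most 0.0233 for all of them but Mcm2. With the scanner software's own ratios none of the 5 passed, and Mcm6 and Mcm7 also did not pass with a background offset of 0.

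Of the 5 tested genes of origin firing, 2 were lower and 3 did not pass, and all 5 had ratios below 0 on both arrays. Ccne1, cyclin E1, had 728 and 657 at day 20 against 1211 and 1294 at day 4. The days were apart, and the mean ratio was -0.86 ± 0.17 (limma adjusted p = 0.000134). Mcm10, a fork factor that is not part of the ring, had 293 and 371 at day 20 against 575 and 586 at day 4, a mean ratio of -0.82 ± 0.22 (limma adjusted p = 0.000246). Ccne2, cyclin E2, did not pass, with a mean ratio of -0.19 ± 0.01 and intensities of 106 and 86 at day 20 against 122 and 97 at day 4, so the cyclins E were not called alike; the difference between them was not tested. Cdc7 and Cdc45, a subunit of the active helicase, had mean ratios of -0.37 ± 0.31 and -0.32 ± 0.42 and did not pass.

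**Figure D2:**
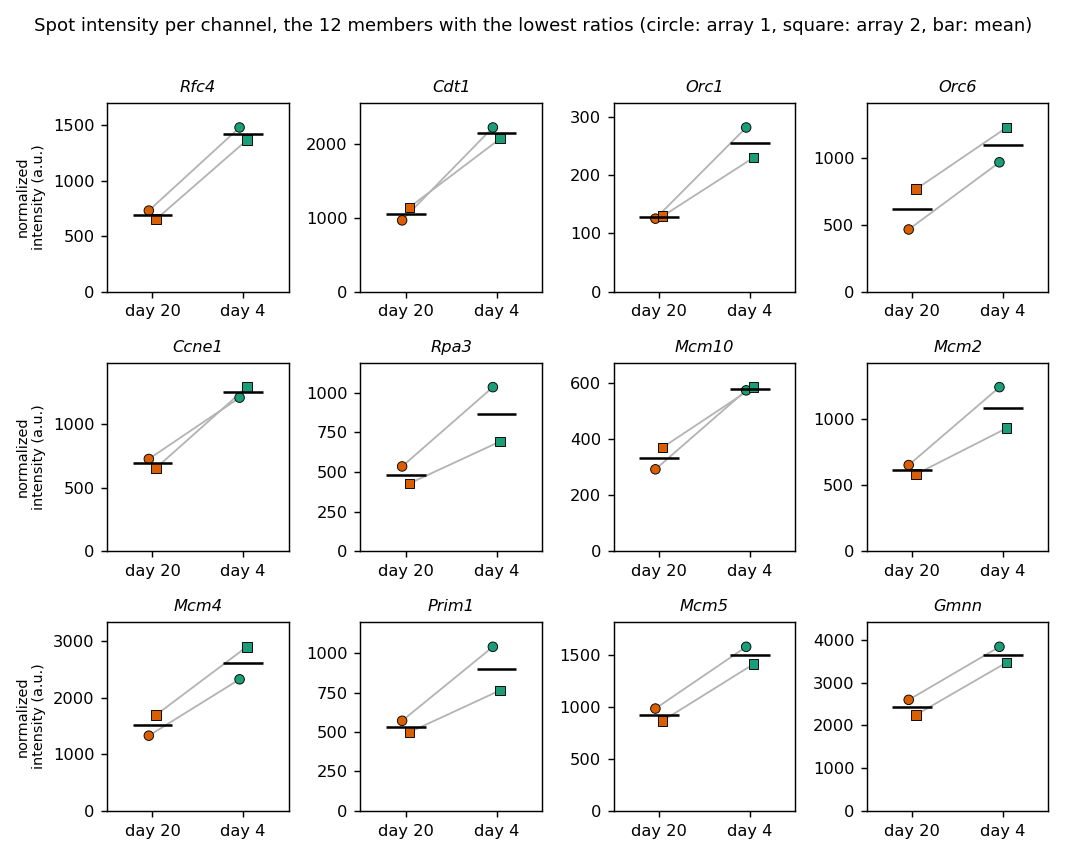
Normalised spot intensity in arbitrary units, day 20 left of day 4, for the 12 replication genes with the lowest mean ratios, with lines joining the channels of 1 array and bars at the means. Both day 20 points sit below both day 4 points in every panel; for Rfc4 they are 729 and 652 against 1478 and 1364.

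The clamp loader held both the lowest and the highest ratio of all the replication genes. Rfc4 had 729 and 652 at day 20 against 1478 and 1364 at day 4. The ratios of -1.02 and -1.07 gave -1.04 ± 0.03 (limma adjusted p = 1.96e-05), the lowest mean of the 37. Rfc2, another small subunit of the same pentamer, had 1680 and 2210 at day 20 against 1055 and 962 at day 4. It was the 1 member that rose, with ratios of 0.67 and 1.20 and a mean of 0.94 ± 0.37 (limma adjusted p = 0.000201). Rfc5 fell, with 649 and 858 at day 20 against 1179 and 1035 at day 4, but its ratios were -0.86 on array 1 and -0.27 on array 2 (mean -0.57 ± 0.42, limma adjusted p = 0.0106). Rfc3 did not pass, with a mean ratio of -0.21 ± 0.11. With the marked spot kept, Rfc1, the large subunit, had a mean ratio of -0.35 ± 0.37 and did not pass (limma adjusted p = 0.111). Pcna, the clamp itself and a widely used proliferation marker, had 4857 and 4719 at day 20 against 5252 and 6283 at day 4. These levels did not overlap between days, yet the mean ratio of -0.26 ± 0.21 did not pass (limma adjusted p = 0.187), with a 95% interval of -0.52 to -0.01.

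The rise of Rfc2 stood beside that of its neighbour. Lat2 is the next protein-coding gene in the RefSeq table and encodes NTAL, an adaptor of IgE receptor signalling in mast cells. It had 2966 and 3257 at day 20 against 1884 and 1549 at day 4, and a mean ratio of 0.86 ± 0.30 (limma adjusted p = 0.000232). Whether Lat2 and Rfc2 share signal or regulation was not tested. Of 13 tested neighbours of 10 genes called lower, 1 fell and 2 rose, where 9.29% of all genes tested fell and 7.83% rose.

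**Figure D3:**
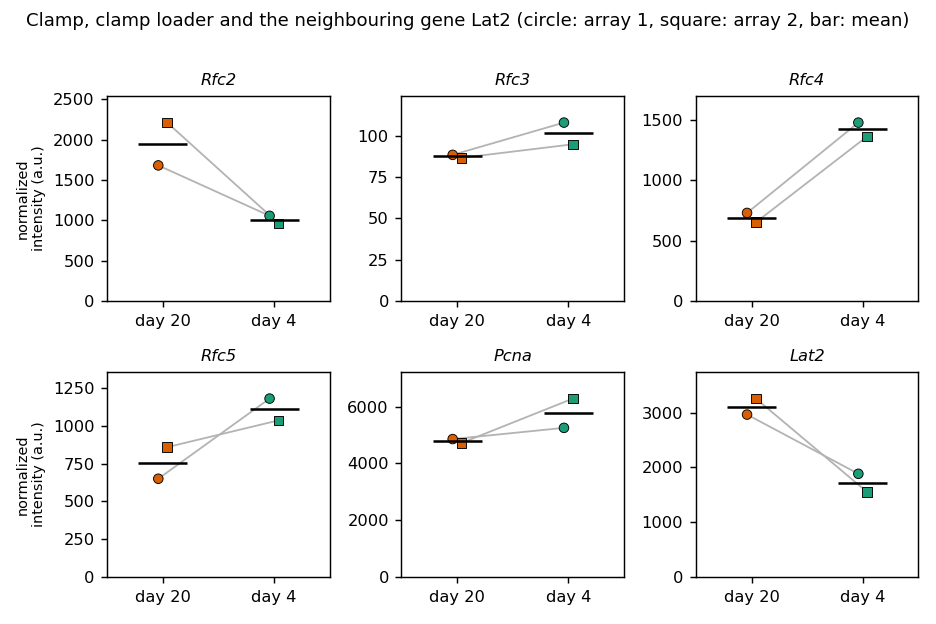
Normalised spot intensity in arbitrary units, day 20 left of day 4, for the clamp Pcna, 4 clamp loader subunits and Lat2, the neighbour of Rfc2, with lines joining the channels of 1 array and bars at the means. Rfc2 and Lat2 are higher at day 20 on both arrays, while Rfc4 and Rfc5 are lower; Rfc3 and Pcna did not pass the test.

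The 3 subunits of RPA, the trimer that coats single-stranded DNA, differed in their calls. Rpa3, the smallest, had 535 and 427 at day 20 against 1035 and 692 at day 4, a mean ratio of -0.82 ± 0.18 (limma adjusted p = 0.000193). Rpa1, the largest and the main DNA-binding subunit, had 738 and 769 at day 20 and 832 and 690 at day 4. Its days overlapped, and its ratios of -0.17 and 0.16 had opposite signs (mean -0.01 ± 0.23, limma adjusted p = 0.997). Rpa2 had ratios of -0.80 and -0.04 and did not pass (mean -0.42 ± 0.54).

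Of the 8 tested genes of polymerases and primase, 4 fell and 4 did not pass. Prim1, the catalytic subunit of primase, had 571 and 498 at day 20 against 1040 and 764 at day 4. Its levels were apart, and its mean ratio was -0.74 ± 0.18 (limma adjusted p = 0.000442). Pola1, the catalytic subunit of polymerase alpha, and Prim2, the other primase subunit, fell with mean ratios of -0.50 ± 0.19 and -0.39 ± 0.21. Pold1, the catalytic subunit of polymerase delta, had 876 and 887 at day 20 against 1161 and 1101 at day 4, and passed narrowly (mean -0.36 ± 0.07, limma adjusted p = 0.0409). Pola2, the accessory subunit of polymerase alpha, had 93 and 121 at day 20 and 90 and 93 at day 4. Its mean ratio of 0.21 ± 0.24 was above 0 and did not pass. The remaining subunits, Pold2, Pole and Pole2, had mean ratios between -0.35 and -0.24 and did not pass either. With an offset of 0 in the background correction, Pold2 had -0.59 and still did not pass (limma adjusted p = 0.0569).

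Neither tested gene of lagging-strand joining and topology passed, nor had either an unadjusted limma p under 0.05. Lig1, which joins Okazaki fragments, had 1557 and 1936 at day 20 against 2026 and 1971 at day 4. Only array 1 showed a gap, with ratios of -0.38 and -0.03 (mean -0.20 ± 0.25). Top2a, which untangles replicated DNA and peaks late in the cycle, had 220 and 280 at day 20 and 297 and 253 at day 4. The days overlapped, and the ratios of -0.43 and 0.14 had opposite signs (mean -0.14 ± 0.40, limma adjusted p = 0.737).

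For most of these genes the arrays differed in 1 direction. The ratio was lower on array 1 than on array 2 for 32 of the 37, against 55.3% of all genes tested. It was also lower on array 1 for 21 of 21 other replication factors and 17 of 20 regulators of S phase entry, described below. The pools and the dye orientation both differ between the arrays and cannot be told apart. Among the 37, the gap was widest for Cdc6 and Rpa2. Signal, which depends on the probe as well as on the transcript, also differed between genes that were called and genes that were not. Of the 12 genes with a mean level under 200, 4 fell (median ratio -0.33), and of the 25 at or above it, 17 fell and 1 rose (median ratio -0.57). The offset of 50 in the background correction draws ratios of dim probes towards 0, so these medians do not show that dim genes fell less.

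**Figure D4:**
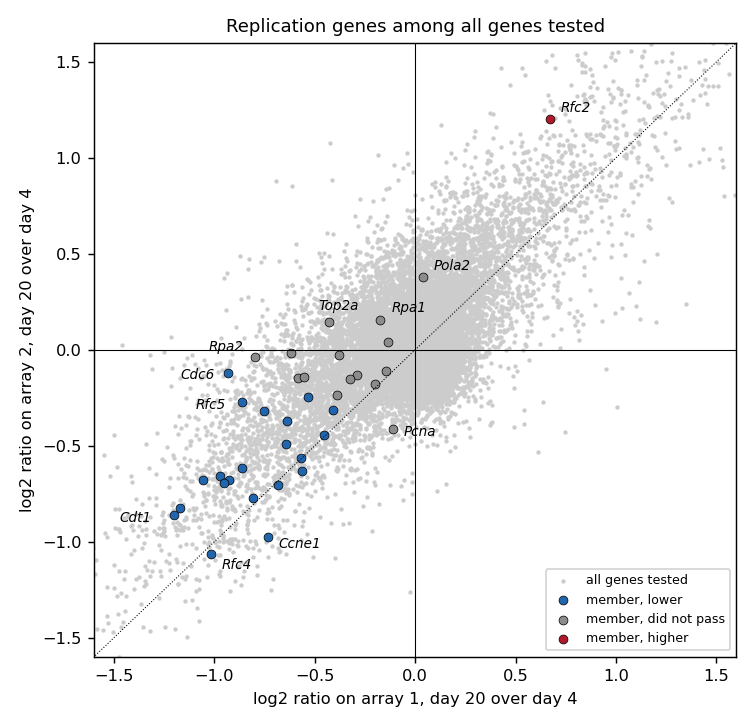
Log2 ratio of day 20 over day 4 on array 1 (x axis) and array 2 (y axis), with all genes tested in light grey and the 37 replication genes in dark outline; axes span the range in which the members lie, and genes beyond it are not shown. Most members sit at the lower left and above the dotted line of equal ratios, as the 32 of 37 with a lower ratio on array 1 show, and Rfc2 lies alone at the upper right.

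Other proteins act at the fork and in chromatin assembly behind it. Of 41 such genes listed, 21 were tested, 7 fell and 14 did not pass, where 9.29% of all genes tested fell. The median ratio of the 21 was -0.25, with -0.39 on array 1 and -0.02 on array 2. Asf1a, a chaperone that hands histones H3 and H4 to new DNA, had 407 and 572 at day 20 against 868 and 1171 at day 4. Its days were apart, and the mean ratio was -1.06 ± 0.04 (limma adjusted p = 1.7e-05). Its paralogue Asf1b had 922 and 1025 at day 20 against 918 and 859 at day 4, and its mean ratio of 0.13 ± 0.18 did not pass. Pole3, a small subunit of polymerase epsilon, Timeless, which protects stalled forks, and Uhrf1, which guides maintenance methylation, fell with mean ratios of -0.62 ± 0.30, -0.57 ± 0.24 and -0.50 ± 0.29. Both tested subunits of the chromatin assembly factor CAF-1, Chaf1a and Chaf1b, fell, with -0.50 ± 0.19 and -0.42 ± 0.09. Pole4 had a mean ratio of 0.11 ± 0.04 and did not pass.

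Among 25 listed regulators of S phase entry, 20 were tested, 5 fell and 3 rose. Of all genes tested, 9.29% fell and 7.83% rose. The median ratio of the 20 was -0.13, with -0.18 on array 1 and -0.05 on array 2. E2f4, an E2F that works largely as a repressor with pocket proteins, had 199 and 207 at day 20 against 366 and 297 at day 4 (mean ratio -0.70 ± 0.25, limma adjusted p = 0.000966). Myc, a growth-promoting transcription factor, and Tfdp1, a dimer partner of E2F proteins, fell with mean ratios of -0.64 ± 0.32 and -0.62 ± 0.27. Cdk4, a cyclin D kinase, passed narrowly, with ratios of -1.05 on array 1 but -0.05 on array 2 (mean -0.55 ± 0.71, limma adjusted p = 0.0488). Of the 3 pocket proteins, which bind E2F factors, Rb1 and Rbl2 rose. Rb1, the retinoblastoma protein, had 775 and 805 at day 20 against 562 and 529 at day 4 (mean ratio 0.54 ± 0.10, limma adjusted p = 0.00396). Rbl2, the p130 protein of resting cells, had 130 and 141 at day 20 against 94 and 99 at day 4 (mean ratio 0.48 ± 0.02, limma adjusted p = 0.00709). The third pocket protein, Rbl1, did not pass, with a mean ratio of 0.03 ± 0.13. Ccnd2, a cyclin D, was the other gene that rose. It had 946 and 968 at day 20 against 808 and 663 at day 4 (mean ratio 0.39 ± 0.23, limma adjusted p = 0.0393). The activator genes E2f1 and E2f2 had mean ratios of 0.04 ± 0.19 and -0.01 ± 0.23 and did not pass.

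**Figure D5:**
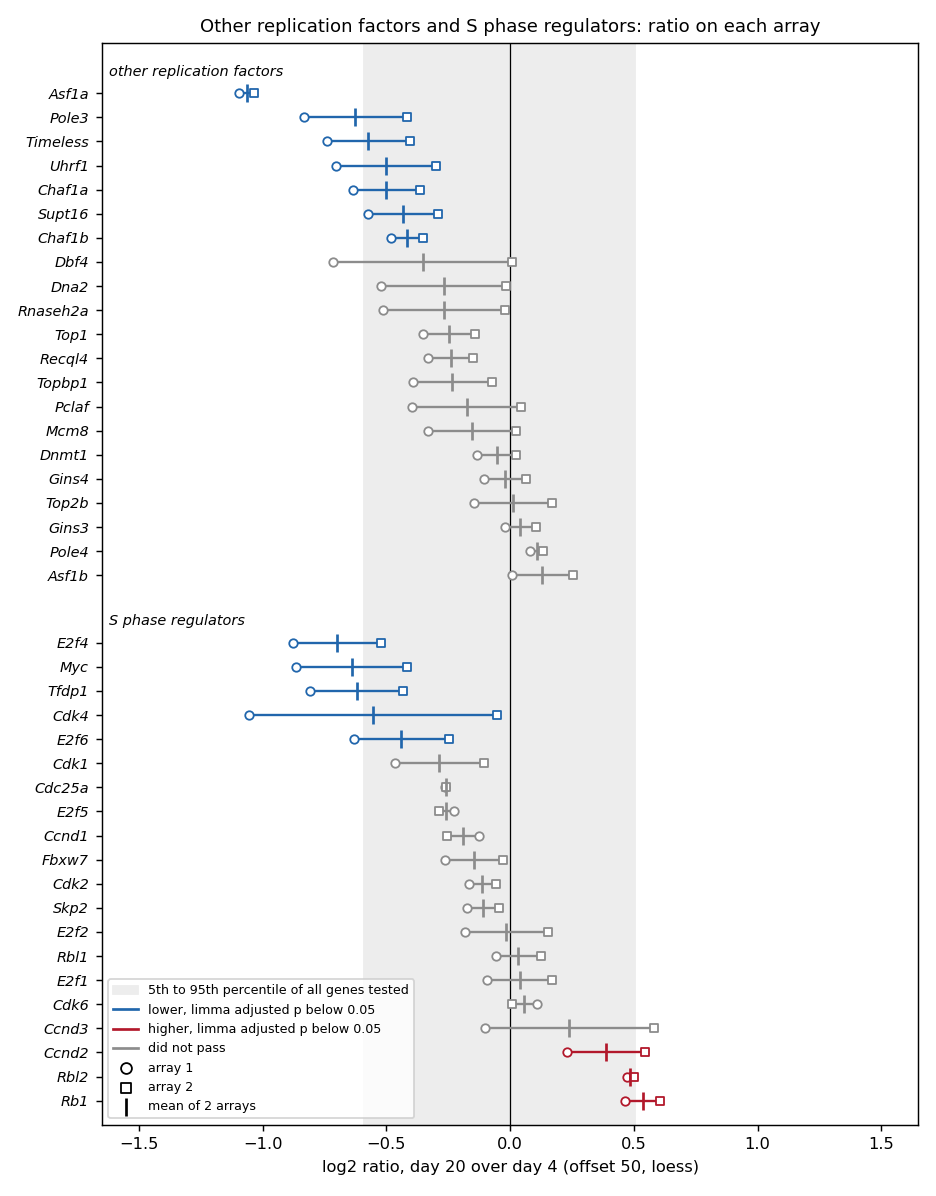
Log2 ratio of day 20 over day 4 for 21 other replication factors and 20 regulators of S phase entry, with a circle for array 1, a square for array 2 and a bar for their mean. Asf1a lies lowest at -1.06, and Rb1, Rbl2 and Ccnd2 are the 3 called higher, in red.

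Markers of several cell types moved between the same days, where 9.29% of all genes tested fell and 7.83% rose. All 7 tested mast cell markers rose, and their summed intensity, with saturated spots among it, was 288951 to 303067 at day 20 against 60225 to 77476 at day 4. Of the neutrophil markers 7 of 10 fell. Their sums were 9014 to 10917 at day 20 against 16645 to 16998 at day 4, most of it at day 20 from Ctsg (8101 and 9749 at day 20 against 8568 and 8469 at day 4), which did not pass. Without Ctsg they were 913 to 1168 at day 20 against 8078 to 8529 at day 4, and Camp did not stand well above background in the day 20 channels. Of the erythroid markers 8 of 9 fell, with sums of 1113 to 1205 against 2200 to 2445, and 3 of them (Car1, Hemgn and Ermap) were too dim for this mark in 1 of the day 20 channels. Camp and these 3 passed the filter only through day 4, where they were higher, so their falls are not independent of it. Of the monocyte markers 6 of 7 fell, with sums of 1299 to 1335 at day 20 against 6561 to 7295 at day 4. Only 1 listed basophil marker, Mcpt8, was tested, and it fell, with 3584 to 3866 at day 20 against 23467 to 28005 at day 4. Prss34 and Gata2, listed with it, had no probe, and Cd200r3 was left out for an outlier-marked spot on array 2. The Cd200r3 signals less background, before normalization, were 250 and 214 at day 20 against 153 and 50 at day 4. The part of these other cells in the lower replication signals was not tested.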

How the data were processed

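RNA of day 20 and day 4 cultures was compared on 2 two-colour Agilent arrays with swapped dyes. Spots were measured with Agilent Feature Extraction (7.5 per the submitters' processing notes, while the header of array 2 gives 7.5.1). For each spot the authors deposited raw intensity values of mean signal and background, and a log10 ratio, Cy5 over Cy3. The authors' value table repeats that log10 ratio, within 1e-06, in all 22393 rows of both arrays, without turning the swap. On array 1 some background medians had become month names, and 313 Cy3 and 324 Cy5 values were turned back into numbers.

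Files were read with the package data.table (1.17.8) in R (4.3.3). In limma (3.58.1), background was removed by normexp with an offset of 50, which draws ratios of dim probes towards 0, and each array was normalized by loess. Spots marked as outliers were left out. Levels are per-channel values after loess and quantile normalization of mean signals between arrays. Of 20868 gene probes, 20571 were unmarked on both arrays, and these had 20369 gene names. The 18031 names well above background in both channels of 1 day were tested, 8851 of them with a symbol. Probes were named from the RefSeq accession (8947), a symbol in the description (407), an older symbol (718) or the description's words (17). With 1 residual degree of freedom, each variance estimate leans mainly on the prior, which had 12.0 degrees of freedom and an SD of 0.163, and a dye term would leave 0. The script was checked on simulated ratios with independent errors and variances drawn from the fitted prior. That check cannot reveal a shift shared by many genes on 1 array.

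The genes and the lists were chosen with earlier results of these data known. Full values were to be given for the 12 lowest and 4 highest ratios and the brightest probe of each role, and for the 4 lowest and 2 highest of each other list. Values of further genes were added after they were seen. Of the planned genes of the other lists, Pole3, Timeless, Uhrf1, Pole4, Myc, Tfdp1 and Cdk4 are given without channel values. Some single-array ratios and p-values of planned genes were also left out. Alternatives covered background, normalization, ratio source, marked spots, dim probes, probe choice, prior and single arrays.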

Additional observations from a re-analysis of the deposited data

How the results depend on the processing

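All 21 genes called lower stayed below 0 under all 9 alternatives with a test, and 7 of them (Rfc4, Cdt1, Orc1, Orc6, Ccne1, Rpa3 and Mcm10) were called in all 9. The count of replication genes called lower was 7 with the scanner software's own ratios, 14 with offset 0 and with median centring, and 19 to 25 otherwise. With the scanner software's ratios no MCM subunit passed, Mcm2 coming closest (limma adjusted p = 0.0532). Rfc2 kept its direction in all 9, but 0 genes were called higher with median centring (Rfc2 ratio 0.84, limma adjusted p = 0.0782). Rpa1, not called, turned to 0.0193 with offset 0 and 0.00797 with the scanner ratios. Median centring gave 782 lower and 558 higher calls over all genes, and the scanner ratios 623 and 604. The other replication factors called lower numbered 4 with offset 0, 1 with median centring and 1 with the scanner ratios. For S phase regulators these settings gave 3, 0 and 0 lower and 1, 0 and 1 higher calls. The causes were not tested. The members' median ranged from -0.55 to -0.43 over the settings, and single arrays gave -0.58 and -0.31, as values without a test. The ratios are already paired, day 20 with day 4 on each array, and no further block could be fitted to 1 group. With offset 0, Cdc6 (-0.93), Cdc45 (-0.51), Ccne2 (-0.39), Rfc3 (-0.43), Pola2 (0.47) and Pold2 (-0.59) lay over 1.5 times further from 0, as did Prim2 (-0.63) with the scanner ratios and Pcna (-0.48), Mcm6 (-0.67) and Lig1 (-0.33) with median centring.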

Other observations

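A probe described only as a minichromosome maintenance protein without a number was not assigned to any member. It had 3111 and 3572 at day 20 against 4441 and 5162 at day 4, with ratios of -0.51 and -0.53 (limma adjusted p = 0.00426), and it lay in the range of the 5 named MCM subunits.

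Among genes that lie next to a replication gene in the RefSeq table, 25 were tested, 1 fell and 5 rose. The shares over all genes tested were 9.29% lower and 7.83% higher. Hmox1, the heme oxygenase gene beside Mcm5, had a mean ratio of 0.90 ± 0.03 (limma adjusted p = 6.14e-05), where Mcm5 had -0.69. Trp53inp1, a p53-induced gene beside Ccne2, had a mean ratio of 1.51 ± 0.15, where Ccne2 did not pass. With marked spots kept, Ccna2, cyclin A2, had a mean ratio of -0.44 ± 0.30 (limma adjusted p = 0.0317), and Rnaseh2c, a subunit of the RNase that removes RNA from DNA, had -1.06 ± 0.09 (limma adjusted p = 3.48e-05).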
